A study of Mus musculus with 6 samples.

Results

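The 10 genes described here, Cdkn1a, Mdm2, Ccng1, Sesn1, Sesn2, Bax, Bbc3, Gdf15, Trp53inp1 and Perp, are well known targets of the transcription factor p53. They were chosen by name, and every non-control probe that carried one of these names was used, which gave 15 probes of the 41174 on the array and 10 of its 29742 gene names. The cells were primary mouse embryonic fibroblasts of a mixed genetic background, taken at embryonic day 15 by the labels. They were either wild type or homozygous for a deletion of part of the helicase domain of Wrn (WrnΔhel/Δhel, called WS in the labels and mutant here), the mouse counterpart of the gene mutated in Werner syndrome. Treated cells of each genotype had been exposed to 0.5 mM H2O2 for 1 hour and harvested 24 hours later in fresh medium, and untreated cells of the same genotype were their controls. RNA was hybridized to 6 two-colour Agilent arrays: 2 compared treated with untreated wild type cells, 2 compared treated with untreated mutant cells, and 2 paired untreated cells of both genotypes. Where the 4 Wrn probes lie relative to the deletion was not determined, so they do not check the labels. The labels call the arrays of a comparison biological replicates.

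p53 is kept scarce in unstressed cells by Mdm2, a ubiquitin ligase that is itself a p53 target, so that Mdm2 closes a negative feedback loop. After DNA damage, p53 accumulates, binds paired half-sites near its targets and raises their transcription. The targets fall into classes by function: Cdkn1a (p21) halts the cell cycle, Ccng1 (cyclin G1) acts with a phosphatase on Mdm2, the sestrins Sesn1 and Sesn2 restrain mTORC1 signalling and aid the reduction of peroxides, Bax and Bbc3 (Puma) open the mitochondrial route to apoptosis, Trp53inp1 takes part in p53 activation and autophagy, Perp is a membrane protein of apoptosis and desmosomes, and Gdf15 is a secreted stress cytokine. In mouse embryonic fibroblasts, p53 and p21 are known for the arrest that follows oxidative damage in culture.

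The upstream sequences of 4 members are shown: Cdkn1a, Ccng1 and Bax, which held a pair of p53 half-sites, and Mdm2, which held 1 half-site. Sesn1 also held 1 half-site and is not shown. The H2O2 response of Mdm2, Ccng1 and Cdkn1a is described below, as is that of members without a sequence here. Each line gives the 250 bases before a transcription start in the RefSeq promoter table of GRCm38.p6, with capitals for the half-sites of the pair that has the fewest mismatches, or for single half-sites where there is no pair.
Mdm2, chr10:117710759-117711008, minus strand: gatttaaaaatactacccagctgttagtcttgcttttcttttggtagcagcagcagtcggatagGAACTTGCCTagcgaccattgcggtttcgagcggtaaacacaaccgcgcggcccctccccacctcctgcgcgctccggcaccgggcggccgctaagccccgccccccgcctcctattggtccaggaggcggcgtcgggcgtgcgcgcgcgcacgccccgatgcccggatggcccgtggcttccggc
Ccng1, chr11:40755287-40755536, minus strand: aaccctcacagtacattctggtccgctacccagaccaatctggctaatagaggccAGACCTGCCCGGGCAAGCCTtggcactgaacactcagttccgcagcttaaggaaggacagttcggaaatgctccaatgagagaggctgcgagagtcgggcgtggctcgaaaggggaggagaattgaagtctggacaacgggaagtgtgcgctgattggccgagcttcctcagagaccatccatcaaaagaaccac
Cdkn1a, chr17:29090729-29090978, plus strand: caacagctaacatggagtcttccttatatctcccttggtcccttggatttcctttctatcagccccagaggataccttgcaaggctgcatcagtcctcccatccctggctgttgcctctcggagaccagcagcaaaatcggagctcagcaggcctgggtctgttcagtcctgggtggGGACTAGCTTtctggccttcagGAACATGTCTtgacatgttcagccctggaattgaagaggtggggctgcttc
Bax, chr7:45466899-45467148, minus strand: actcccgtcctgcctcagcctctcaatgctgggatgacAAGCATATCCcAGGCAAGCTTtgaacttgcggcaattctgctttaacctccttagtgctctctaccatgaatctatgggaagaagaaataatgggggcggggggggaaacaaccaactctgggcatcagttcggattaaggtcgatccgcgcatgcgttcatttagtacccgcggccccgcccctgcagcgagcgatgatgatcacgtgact
The search covered the 300 bases from 250 before to 50 after each start, and 8 of the 10 members had entries, with 13 windows in all. Trp53inp1 and Perp were not matched. The consensus of the p53 half-site, 10 bases long and read the same on both strands, had an exact match in 5 of the 13 windows and in 8.36% of all 32851 windows in the table. A pair of half-sites up to 13 bases apart with at most 1 mismatch was present in 3 member windows, 1 each of Cdkn1a, Ccng1 and Bax, and in 1.09% of all windows. The Cdkn1a window shown held 2 pairs, and the one in capitals had 0 mismatches and a spacer of 12 bases, and it began 73 bases before that start. The window at the other Cdkn1a start held 0 half-sites and 0 pairs. The Ccng1 pair, 195 bases before the start, had 1 mismatch and no spacer, and the Bax pair, 212 bases before the start, had 1 mismatch and a spacer of 1 base. The Mdm2 window held 1 half-site, 186 bases before the start, and a window of Sesn1 held another. These matches describe letters in a window, and binding was not measured.

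Ratios are given as log2 of Cy5 over Cy3. On the genotype arrays the labels place wild type RNA in Cy5 and mutant RNA in Cy3, whereas the study's own gene list reads Cy5 over Cy3 as mutant over wild type, so the direction there is not settled. On the 4 treatment arrays the treated RNA carried Cy5 on every array, without a dye swap, so any dye bias of a probe is contained in each treatment ratio and cancels in the difference between the mutant and wild type responses. The extraction software had marked 23 of the 90 member spots as outliers, 10 of them on wild type replicate 2, where 22.6% of all spots were marked, and 6 on mutant replicate 2, where 8.81% were. Marked spots were left out of the fit, and where a value with the marked spot kept is given this is stated. Of the 15 probes, 11 stood well above background in both dyes of all arrays. Perp, Gdf15 and 2 of the 3 Sesn1 probes were dim in at least 1 of the 12 channels. Of the 10 fibroblast markers measured, 9 stood well above background in all 12 channels, and 0 of 4 mast cell, 0 of 4 endothelial, 2 of 4 neural, 1 of 5 epithelial, 3 of 7 macrophage and 5 of 7 skeletal muscle markers did. The log2 of the summed untreated (Cy3) signal of the mast cell list was 9.73 to 10.27 in wild type and 7.0 to 7.20 in mutant cells, that of the fibroblast list 15.93 to 16.12 and 16.52 to 16.74. The 4 mast cell markers did not share a direction. Within Cy3, mutant minus wild type, 1 was above and 2 were below 0 at an unadjusted p under 0.05 (limma). Of all probes 7.87% and 5.36% were. The part of such differences in the results below was not tested. Fewer cells of a type and less RNA per cell cannot be told apart in these cultures.

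The first question was whether the p53 targets responded to H2O2 in each genotype. In wild type cells the leading probes of Trp53inp1 and, with its marked spots kept, Mdm2 were higher after treatment on both arrays, Cdkn1a had ratios of 0.50 and, kept, 0.49, and Ccng1 was closer to its untreated level. In mutant cells both probes of Mdm2 and Ccng1 and the leading probe of Trp53inp1 stood 2.03- to 2.97-fold above untreated cells. The upper end was the leading Mdm2 probe on 1 unmarked spot, and this probe was 2.81-fold higher with its marked spot kept. In both genotypes Sesn2, Bbc3 and, with its marked spots kept, Bax had less signal in the treated dye. In the fit over all 6 arrays (limma, Benjamini-Hochberg adjustment over all probes), 0 of the 13 member probes with a value were called in wild type cells at an adjusted p under 0.05, where 0.258% of all 40303 probes were called. In mutant cells 0 of 14 were called, as were 0% of all 41052 probes. By the study's own stricter thresholds, applied here only to the fit over 6 arrays, 0 member probes were called in either response or on the genotype arrays. Of all probes 0%, 0% and 1.76% were called. The study itself listed genes that passed its thresholds in each response, so these counts do not stand for its lists. At an unadjusted p under 0.05, limma passed 1 of 13 member probes in wild type cells, against 20% of all probes, and 7 of 14 in mutant cells, against 12%.

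When each pair of arrays was fitted alone, limma called 4 of 13 member probes in wild type cells, against 25.1% of all probes, and 8 of 14 in mutant cells, against 10.7%. With marked spots kept as well, a setting chosen after the data were seen, 5 of 15 were called in wild type cells, against 17.9%, and 9 of 15 in mutant cells, against 14.2%. In mutant cells the 8 were both probes of Mdm2 and Ccng1, Cdkn1a and the leading Trp53inp1 probe, all above 0, and Sesn2 and Bbc3, below 0. In wild type cells they were the leading Trp53inp1 probe above 0 and Sesn2, Bbc3 and 1 Sesn1 probe below 0. Sesn2 and Bbc3 in both genotypes and the leading Mdm2 probe in mutant cells rested on 1 unmarked spot. Those calls hold no spread between arrays. Over the leading probe of each gene, the median log2 ratio in the fit over 6 arrays was 0.14 in wild type cells, with 4 of 8 genes above 0, and 0.34 in mutant cells, with 5 of 9 above 0. The median of all probes was -0.01 and 0.01.

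**Figure D1:**
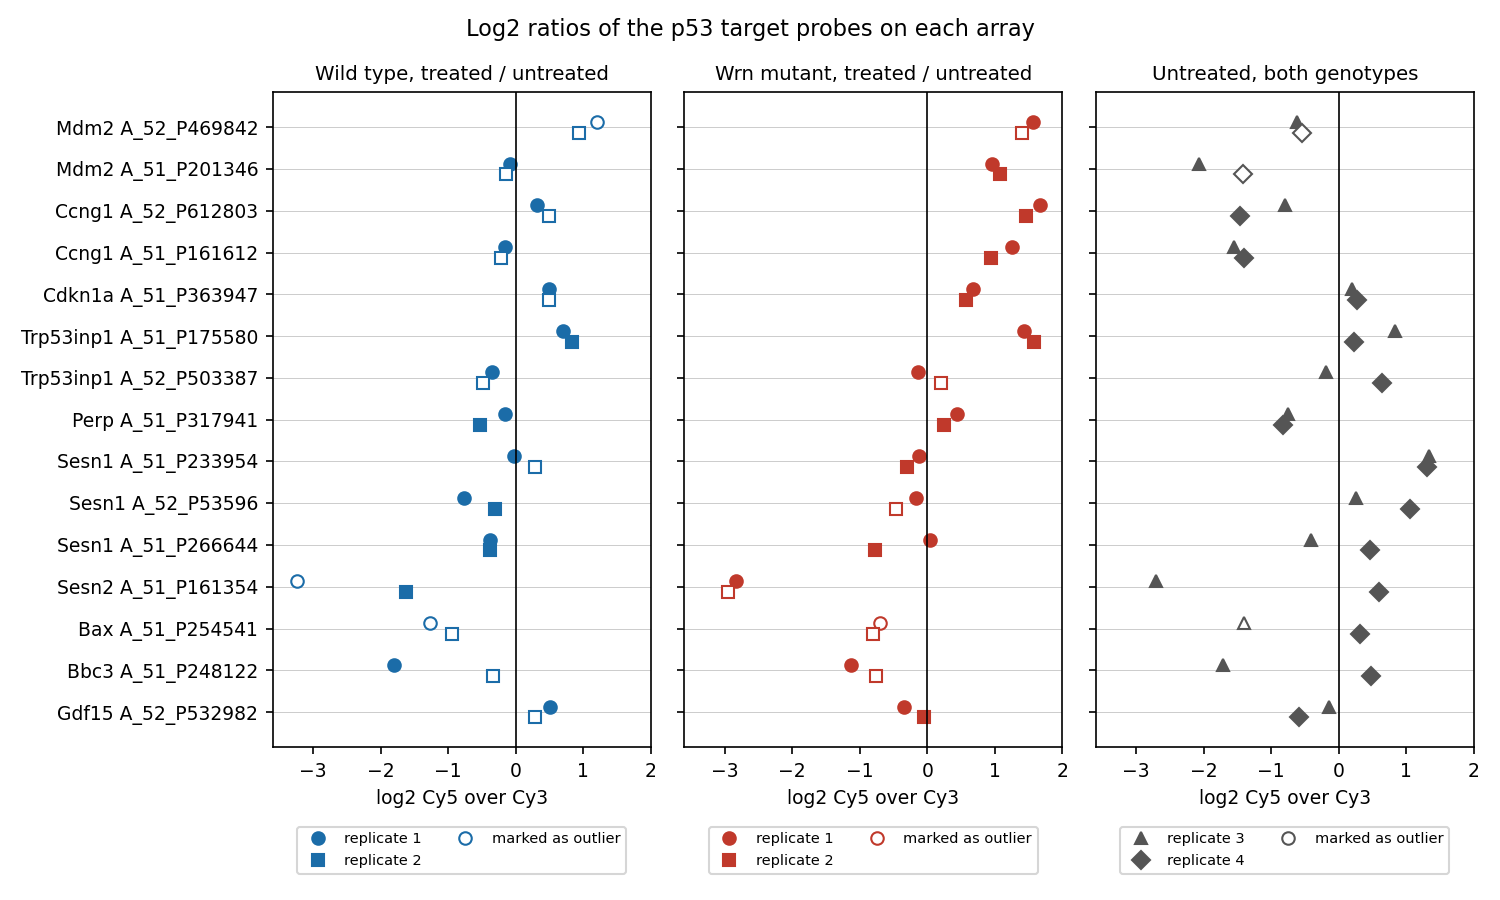
Log2 Cy5 over Cy3 (x axis) of the 15 probes (y axis) on each array, in wild type cells, in mutant cells and on the arrays that paired untreated cells of both genotypes; each point is 1 array and open points are spots marked as outliers. Mdm2 and Ccng1 lie between 0.95 and 1.66 on the mutant arrays, and Sesn2, Bax and Bbc3 lie below 0 on every array except genotype replicate 4.

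Ccng1, a p53 target that feeds back on Mdm2, had higher ratios in mutant than in wild type cells. Its leading probe, A_52_P612803, gave a ratio of 0.31 on wild type replicate 1 and 0.49 on replicate 2 with its marked spot kept, and 1.66 and 1.47 on the mutant arrays. Its other probe, A_51_P161612, gave -0.16 and, with the marked spot kept, -0.21 in wild type cells, and 1.26 and 0.95 in mutant cells. At each probe both mutant ratios were above both wild type ratios. The share of all probes with such a separation was not computed. In mutant cells the leading probe was 2.96-fold higher after treatment (log2 1.57 ± 0.21 SE, n = 2 arrays; adjusted p = 0.208 over 6 arrays and 1.19e-05 over its own arrays, limma). The difference between the responses, mutant minus wild type, was 1.26 ± 0.37 SE on the log2 scale (95% interval 0.36 to 2.15) at the leading probe and 1.27 ± 0.30 SE (0.53 to 2.00) at the other. Wild type replicate 2 was left out at both probes, so the SE holds no spread between wild type arrays. In the fit over 6 arrays the adjusted p (limma) was 0.758 and 0.661, and over the 4 treatment arrays alone it was 0.0468 and 0.0505.

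The levels behind these ratios lay further apart before treatment than after it, and neither difference was called. The untreated (Cy3) level of the leading Ccng1 probe was 11.29 on wild type replicate 1, 10.86 on replicate 2 with its marked spot kept, and 10.16 and 10.24 in mutant cells. Its treated (Cy5) level was 11.60 and, with the marked spot kept, 11.35 in wild type cells, and 11.82 and 11.71 in mutant cells. Within Cy3 the mutant was lower by a log2 difference of -1.09 ± 0.45 SE (adjusted p = 0.286, limma), and within Cy5 the difference was 0.16 ± 0.51 SE (adjusted p = 0.959). The other probe behaved alike, with -1.18 ± 0.49 SE (adjusted p = 0.294) before and 0.09 ± 0.52 SE (adjusted p = 0.98) after treatment.

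Mdm2, the ubiquitin ligase that limits p53, gave a like contrast at 1 of its 2 probes. There too wild type replicate 2 was left out of the fits, so the SE of each difference holds no spread between wild type arrays. At A_51_P201346 the ratio was -0.09 on wild type replicate 1 and -0.14 on replicate 2 with the marked spot kept, against 0.95 and 1.09 on the mutant arrays, which was 2.03-fold (log2 1.02 ± 0.18 SE; adjusted p = 0.24 over 6 arrays and 0.000548 over its own arrays, limma). The difference of the responses at this probe was 1.11 ± 0.30 SE (95% interval 0.33 to 1.89; adjusted p = 0.764 over 6 arrays and 0.0617 over the 4 treatment arrays, limma). The untreated level was 8.10 in wild type replicate 1 and 6.94 and 7.39 in mutant cells, a log2 difference of -0.93 ± 0.46 SE (adjusted p = 0.387, limma), and the treated levels differed by 0.18 ± 0.52 SE (adjusted p = 0.956).

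The leading Mdm2 probe, A_52_P469842, had its spot marked on both wild type arrays and on mutant replicate 2. With marked spots kept its ratio was 1.20 and 0.94 in wild type cells and 1.57 and 1.41 in mutant cells. This probe was thus higher after treatment on all 4 arrays. With marked spots kept limma called it in wild type cells (2.1-fold, log2 1.07 ± 0.16 SE, adjusted p = 0.0365 over 6 arrays), where 2.39% of all probes were called. Its response in mutant cells was 2.81-fold in the same fit (log2 1.49 ± 0.16 SE, adjusted p = 0.0668), and the difference between the responses was 0.42 ± 0.23 SE (95% interval -0.11 to 0.96, adjusted p = 0.819). The 2 Mdm2 probes therefore gave different ratios in wild type cells, and the difference between probes was not tested.

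**Figure D2:**
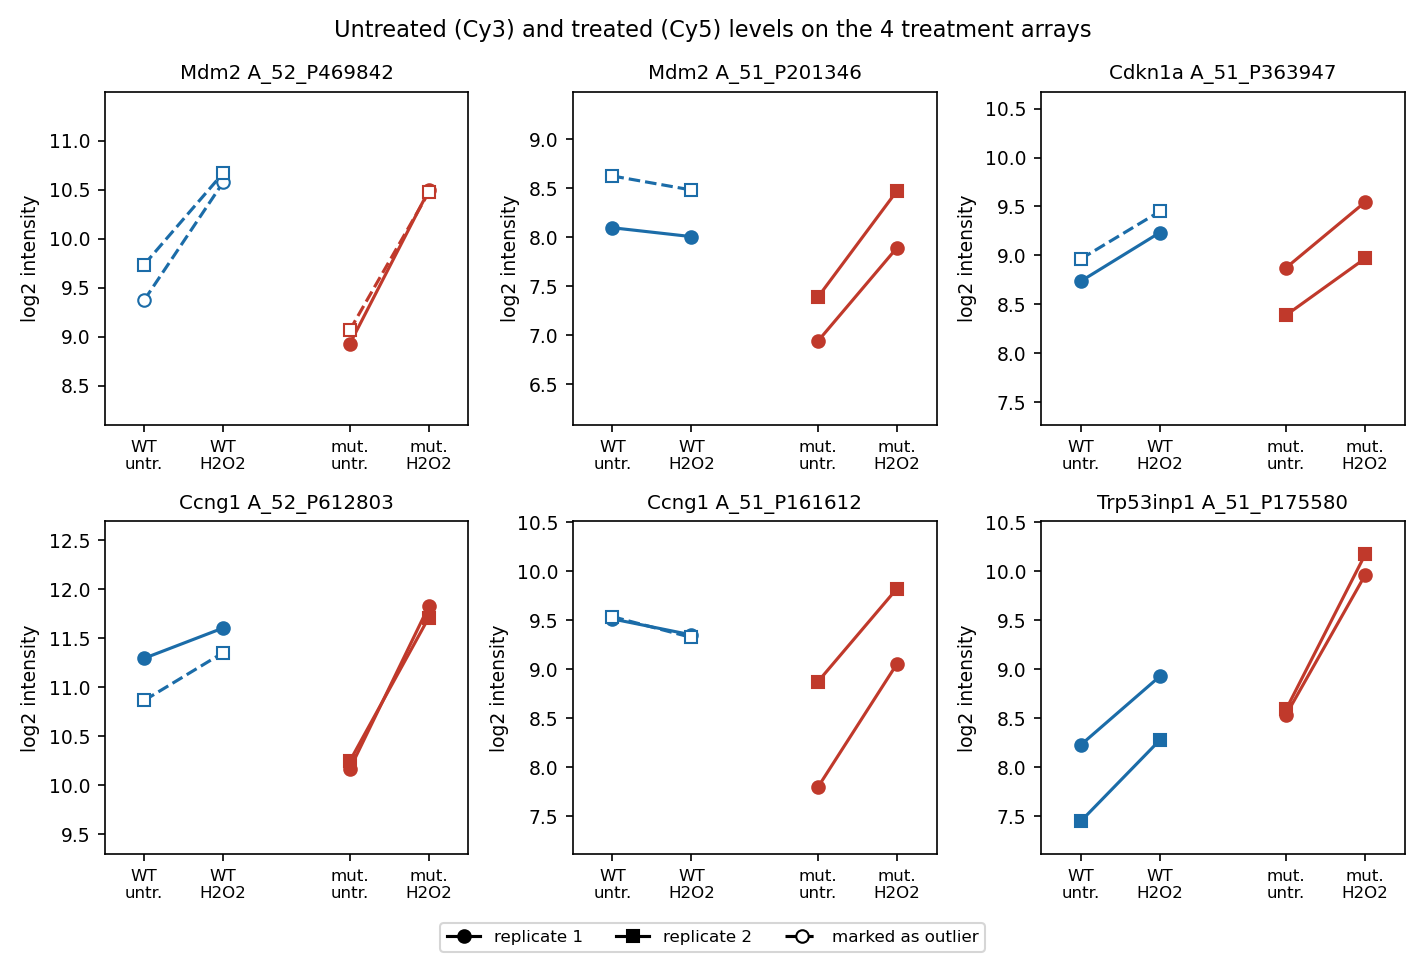
Log2 intensity (y axis) of 6 probes in untreated (Cy3) and treated (Cy5) cells of each genotype (x axis) on the 4 treatment arrays; a line joins the dyes of 1 array, blue is wild type, red is mutant, and open points with dashed lines are spots marked as outliers. Untreated mutant cells lie below untreated wild type cells at both probes of Mdm2 and Ccng1, while the treated levels of these probes lie close together or overlap.

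Cdkn1a, the inhibitor of cyclin-dependent kinases that mediates arrest downstream of p53, had ratios that lay close together in both genotypes. Both mutant ratios were still above both wild type ratios, with the marked spot of wild type replicate 2 kept. The share of all probes with such an order was not computed. The Cdkn1a ratio was 0.50 on wild type replicate 1, 0.49 on replicate 2 with the marked spot kept, and 0.67 and 0.58 on the mutant arrays. The mutant response was 1.54-fold (log2 0.62 ± 0.16 SE; adjusted p = 0.282 over 6 arrays and 0.0165 over its own arrays, limma) and that of wild type cells 1.41-fold (log2 0.50 ± 0.23 SE, 1 array; adjusted p = 0.297 and 0.0918). The difference between the responses was 0.13 ± 0.28 SE, with a 95% interval of -0.55 to 0.81. Its untreated levels, 8.74 in wild type replicate 1 and 8.88 and 8.39 in mutant cells, overlapped between the genotypes.

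Trp53inp1 was higher after treatment at its leading probe, A_51_P175580, on all 4 arrays. The wild type ratios were 0.70 and 0.83 and the mutant ratios 1.43 and 1.58, with no spot marked. Treated cells were 1.7-fold higher in wild type (log2 0.76 ± 0.19 SE; adjusted p = 0.0916 over 6 arrays and 0.00302 over its own arrays, limma) and 2.84-fold higher in mutant cells (log2 1.5 ± 0.19 SE; adjusted p = 0.164 and 1.63e-05). The difference between the responses was 0.74 ± 0.27 SE (95% interval 0.10 to 1.38; adjusted p = 0.817 and 0.0856). Unlike Mdm2 and Ccng1, this probe was no lower in untreated mutant cells: its untreated levels were 8.23 and 7.45 in wild type and 8.54 and 8.59 in mutant cells. Its treated levels were 8.93 and 8.28 in wild type and 9.96 and 10.17 in mutant cells, a log2 difference of 1.47 ± 0.42 SE (adjusted p = 0.0583, limma). The other probe, A_52_P503387, gave -0.35 and, with the marked spot kept, -0.48 in wild type cells, and -0.14 and, kept, 0.20 in mutant cells. The 2 probes of the gene thus had opposite signs on both wild type arrays and on 1 mutant array.

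Perp, the membrane protein, gave ratios of -0.15 and -0.53 in wild type cells and 0.43 and 0.25 in mutant cells. Its Cy5 signal was well above background on 1 wild type array and on 0 mutant arrays, so neither a direction in mutant cells nor a fold is given. The fitted difference between the responses, 0.68 ± 0.24 SE (adjusted p = 0.81 over 6 arrays, limma), rests on the same dim signal.

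Gdf15, the stress cytokine, had a dim probe. Its ratio was 0.51 on wild type replicate 1 and 0.28 on replicate 2 with the marked spot kept, and -0.34 and -0.04 in mutant cells, where Cy5 was not well above background on either array. The treated level of wild type replicate 1 was at least 1.39-fold above that of treated mutant cells, a bound set by the dim mutant signal. Replicate 2 was left out, so the bound rests on 1 wild type array. The measured log2 difference, mutant minus wild type, was -1.30 and was not called.

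Sesn1 had 3 probes, of which only A_51_P233954 was bright. Its ratio was -0.03 in wild type replicate 1 and 0.29 in replicate 2 with the marked spot kept. In mutant cells it was -0.13 and -0.30, with a response of -0.22 ± 0.16 SE (adjusted p = 0.65, limma). The probe A_52_P53596 gave -0.77 and -0.31 in wild type cells, and -0.16 and, with the marked spot kept, -0.47 in mutant cells. The third probe, A_51_P266644, gave -0.38 on both wild type arrays and 0.04 and -0.78 in mutant cells, with Cy5 not well above background on any array.

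Sesn2, Bax and Bbc3 shared a pattern across the arrays. The Sesn2 ratio was -3.24 with its marked spot kept and -1.62 in wild type cells, -2.83 and, with the marked spot kept, -2.95 in mutant cells, and -2.71 and 0.60 on genotype replicates 3 and 4. Bbc3 gave -1.81 and, with the marked spot kept, -0.34 in wild type cells, -1.13 and, kept, -0.76 in mutant cells, and -1.72 and 0.48 on the genotype arrays. Bax was marked on 5 of the 6 arrays. With its spots kept it gave -1.27, -0.94, -0.71, -0.81 and -1.40 on those 5 arrays, and its only unmarked value was 0.31 on genotype replicate 4. Both dyes of the genotype arrays held untreated cells, yet replicate 3 lay with the treatment arrays and replicate 4 apart from them. The 5 arrays with values below 0 carry consecutive slide numbers, and genotype replicate 4 carries a number outside that run. Over all probes with a value on each array, marked spots kept, 4.15% were below 0 on the 5 arrays and above 0 on genotype replicate 4, and 0.613% were so by more than 0.25 in each direction. Among the 15 member probes 3 were, in both counts. The pattern was taken from the values of these 3 probes, so setting their count beside the shares is no test.

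The Cy3 level of Sesn2 showed the same split, at 12.18 to 13.01 on the arrays with an unmarked spot among the 5 and 9.63 on genotype replicate 4. In the fit over 6 arrays the Sesn2 response was -1.62 ± 1.08 SE in wild type cells (adjusted p = 0.485, limma) and -2.83 ± 1.08 SE in mutant cells (adjusted p = 0.41). Over their own arrays, where each value rests on 1 unmarked spot, the Sesn2 calls had adjusted p = 0.000926 and 2.17e-06 and the Bbc3 calls 0.000647 and 0.00513. In the fit over 6 arrays too each response rests on 1 unmarked spot. The spread of Sesn2 there was measured only between the genotype arrays, not within a response. The part of slide or dye in these values was not tested.

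**Figure D3:**
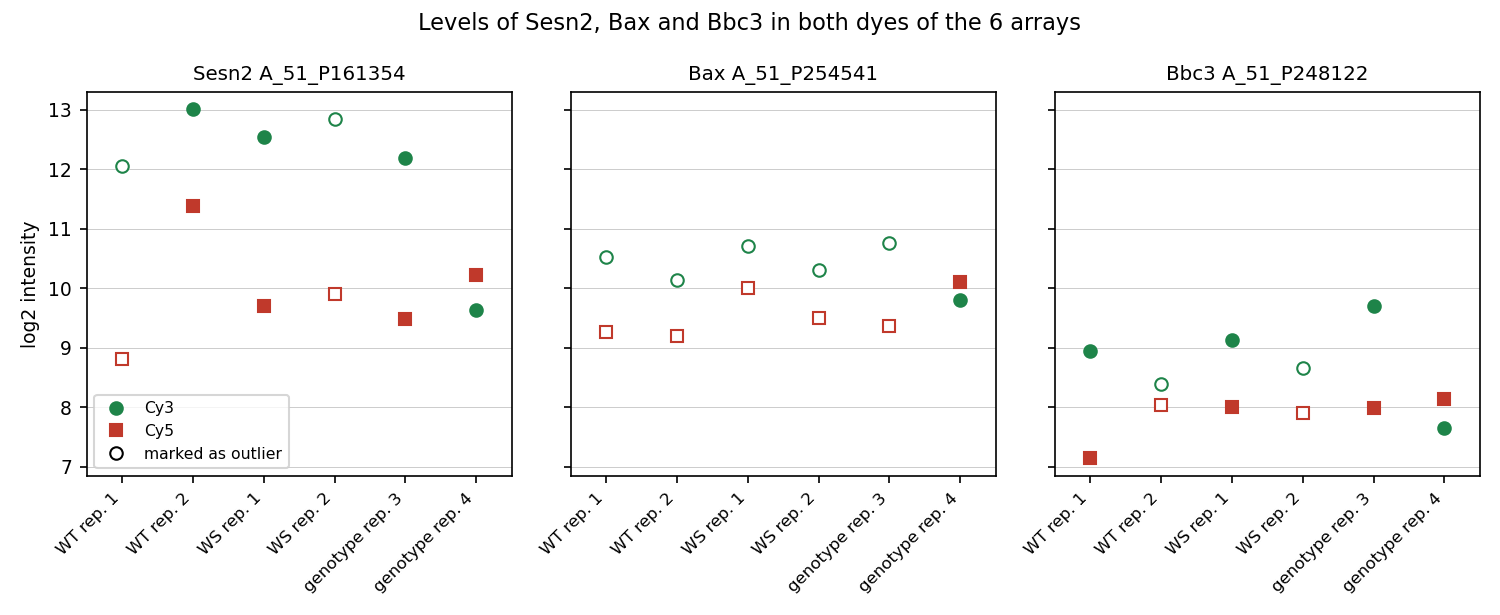
Log2 intensity (y axis) of the Sesn2, Bax and Bbc3 probes in Cy3 (green circles) and Cy5 (red squares) on the 6 arrays (x axis), with open symbols for spots marked as outliers. Cy3 lies above Cy5 on 5 arrays and below it on genotype replicate 4.

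The second question was whether the response differed between the genotypes. In the fit over 6 arrays limma called 0 of 13 member probes for the difference, mutant minus wild type, and 0% of all 40267 probes. At an unadjusted p under 0.05, 5 of 13 member probes passed, against 5.94% of all probes. These were both Ccng1 probes, A_51_P201346 of Mdm2, the leading Trp53inp1 probe and the dim Perp probe, all above 0, and 3.27% of all probes passed in that direction. Over the 4 treatment arrays alone limma called 1 of 13, the leading Ccng1 probe, against 1.27% of all probes. With the marked spots kept as well it called 3 of 15, both Ccng1 probes and Mdm2 A_51_P201346, against 0.546%. Without the marked spots, wild type replicate 2 had no value at these 3 probes, so their differences then held no spread between wild type arrays. The median difference over the leading probes was 0.40 on the log2 scale, with 5 of 8 genes above 0, and the median of all probes was 0.01.

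**Figure D4:**
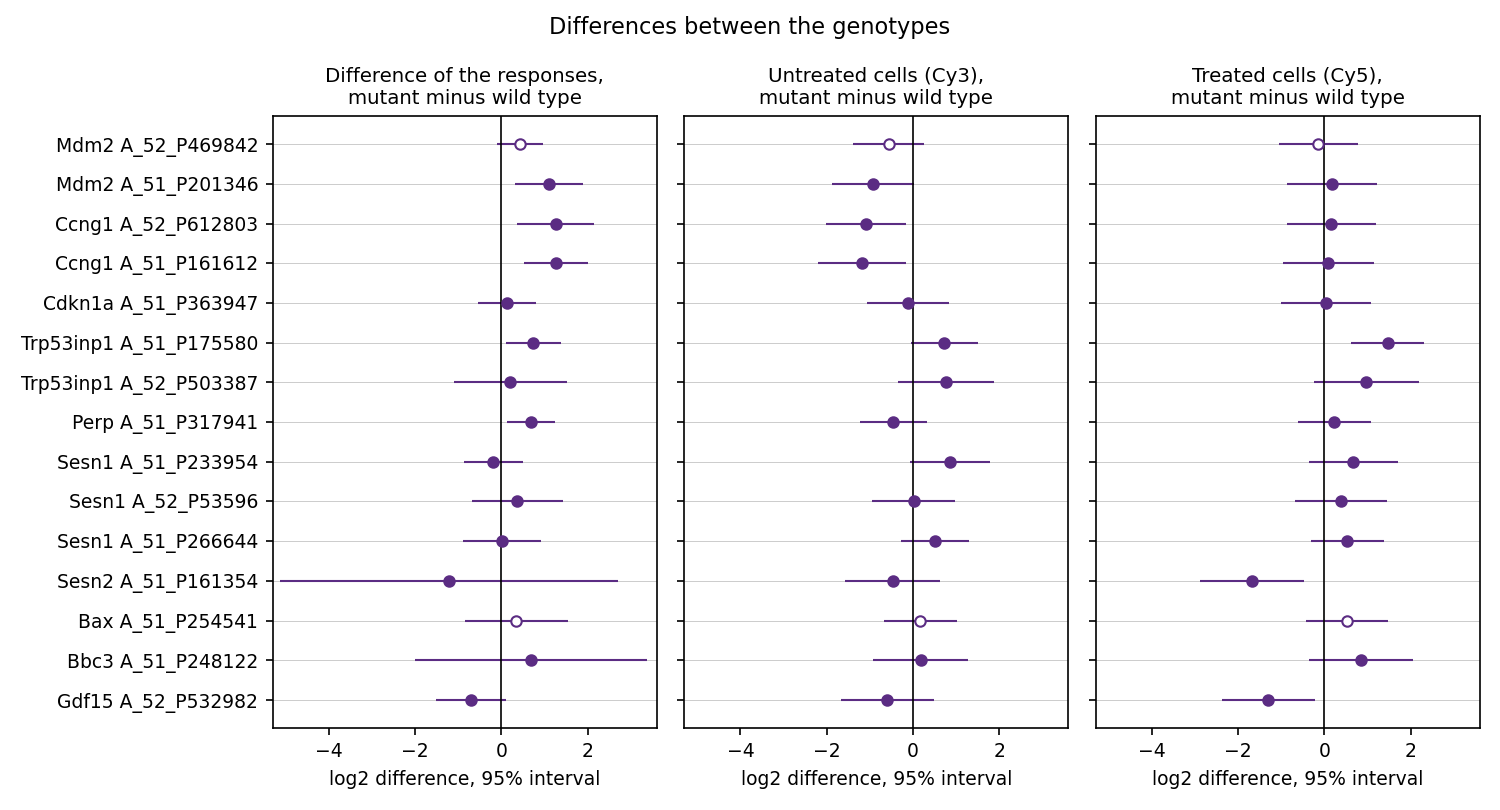
Log2 differences, mutant minus wild type (x axis), of each probe (y axis) for the H2O2 response, for untreated cells within Cy3 and for treated cells within Cy5; points are limma estimates, bars are 95% intervals, and open points are probes with a value only when marked spots are kept. The intervals of both Ccng1 probes lie above 0 for the response and below 0 for untreated cells, and include 0 for treated cells.

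The third question was how untreated cells of the 2 genotypes compared. Because the sources disagree on the dyes of these arrays, each value is given as Cy5 over Cy3. Mutant RNA in Cy5 is the likely reading, on the basis of the study's gene list and of the treatment arrays: over 40228 probes these ratios correlated with the mutant minus wild type difference within Cy3 of the treatment arrays, whose labels and study agree, with r = 0.618, and 91.7% of the 7887 probes called on the genotype arrays had the same sign. This correlation is across probes, which are not independent replicates.

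On the genotype arrays limma called 5 of the 15 member probes, while 19.6% of all 41099 probes were called. Both Ccng1 probes, Mdm2 A_51_P201346 and Perp were below 0, where 9.78% of all probes were called, and the bright Sesn1 probe was above 0, where 9.83% were. With marked spots kept 6 of 15 were called, against 22.4%, and over the 2 genotype arrays alone 3 of 15, against 5% without and 4.75% with the marked spots. Without the marked spots the leading Ccng1 probe (adjusted p = 0.0866, limma) and Perp (adjusted p = 0.179) lost their calls over the 2 genotype arrays alone. The leading Ccng1 probe gave -0.80 and -1.46 on the 2 arrays (log2 -1.13 ± 0.21 SE, adjusted p = 0.0182, limma), and the other gave -1.55 and -1.40 (log2 -1.48 ± 0.17 SE, adjusted p = 0.00511). Mdm2 A_51_P201346 gave -2.07 on replicate 3 and -1.42 on replicate 4 with its marked spot kept (log2 -2.07 ± 0.25 SE on 1 array, adjusted p = 0.0084, limma). The leading Mdm2 probe gave -0.62 and, with the marked spot kept, -0.54 (adjusted p = 0.201, and 0.0471 with marked spots kept). Read as mutant over wild type, Mdm2 A_51_P201346 and both Ccng1 probes were lower in untreated mutant cells, as they were on average within Cy3 of the treatment arrays. Read by the labels they would be higher in mutant cells, against the Cy3 values.

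Sesn1 A_51_P233954 was the only member probe called above 0, with 1.33 and 1.31 on the 2 arrays (2.5-fold, log2 1.32 ± 0.16 SE, adjusted p = 0.0057, limma). Within Cy3 of the treatment arrays it was also higher in mutant cells, at 8.99 and 9.05 against 8.16 in wild type replicate 1 and 8.20 in replicate 2 with the marked spot kept (log2 difference 0.86 ± 0.45 SE, adjusted p = 0.423). Its dim probes gave 0.66 ± 0.25 SE (adjusted p = 0.114) and 0.03 ± 0.27 SE (adjusted p = 0.951) on the genotype arrays. Perp gave -0.75 and -0.83 (log2 -0.79 ± 0.17 SE, adjusted p = 0.0202), with Cy5 not well above background on either array, so no fold is given. Cdkn1a, Trp53inp1, Gdf15, Bax, Bbc3 and Sesn2 were not called, and the log2 ratio of Cdkn1a was 0.24 ± 0.16 SE (95% interval -0.15 to 0.63).

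Within 1 dye of the treatment arrays, limma called 0 of 13 member probes between untreated mutant and wild type cells, where 1.49% of all 40267 probes were called, and 0 of 13 between treated cells, where 1.65% were. At an unadjusted p under 0.05, 2 of 13 passed in untreated cells, both of Ccng1 and lower in the mutant, against 13.2% of all probes. In treated cells 3 of 13 passed, the leading Trp53inp1 probe higher and Gdf15 and Sesn2 lower in the mutant, against 11.1%. The Sesn2 value, -1.68, rests on 1 unmarked spot of each genotype, and with marked spots kept it was -0.33 ± 0.71 SE, since the treated level of wild type replicate 1, 8.81, lay below both mutant levels, 9.71 and 9.90.

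The genotype ratio of a probe less its genotype difference within Cy3 was computed as a description of dye. The 2 values come from different samples, so differences between samples and a dye bias cannot be told apart in it. Reading the genotype arrays as mutant over wild type, it was 0.34 for Cdkn1a, -0.04 and -0.30 for the leading and other Ccng1 probe, -0.20 for the leading Trp53inp1 probe and -1.14 for Mdm2 A_51_P201346. With marked spots kept it was 0.48, -0.18, -0.26, -0.16 and -0.54 for the same probes in that order. Read by the labels, with marked spots left out, it was 0.13, -2.22, -2.65, 1.26 and -3.00. Several of these values are as large as the treatment ratios of the same probes.

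A wider list of 40 p53 targets showed how far the 10 genes stood for the pathway. In wild type cells limma called 0 of 35 genes with a value. At an unadjusted p under 0.05, 10 were above 0 and 2 below, against 9.98% and 10% of all probes, with a median log2 ratio of 0.22. In mutant cells 0 of 39 were called and 10 and 2 passed unadjusted, against 5.81% and 6.21%, with a median of 0.18. Pmaip1 (Noxa), a mitochondrial death protein, gave 1.29 in wild type replicate 1 and 1.65 and 1.76 in mutant cells (adjusted p = 0.0649 and 0.155, limma), and the death receptor gene Fas gave 1.00 and 0.36, then 1.36 and 0.84 on the wild type and mutant arrays. Both genes were picked out after their values were seen. The difference between the responses was called for 0 of 34 genes, and at an unadjusted p under 0.05 limma passed 2 above and 1 below 0, against 3.27% and 2.67%.

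Between the genotypes, 10 of 39 genes of this list were called on the genotype arrays, 5 above and 5 below 0, where 9.83% and 9.78% of all probes were called. The mTORC1 inhibitor Ddit4 was at 2.38 ± 0.17 SE (adjusted p = 0.00289, limma), the growth factor binding protein Igfbp3 at -1.83 ± 0.24 SE (adjusted p = 0.0046), and Thbs1, an inhibitor of angiogenesis, at -3.85 on 1 array (adjusted p = 0.00458). Within Cy5 of treated cells Ephx1, an epoxide hydrolase, was higher in mutant cells (2.38 ± 0.43 SE, adjusted p = 0.000367), as called by limma. The difference was not confined to treated cells. Ephx1 was also called on the genotype arrays (1.10 ± 0.18 SE, adjusted p = 0.0096, limma), and within Cy3 of untreated cells it was at 1.52 ± 0.39 SE (adjusted p = 0.0528).

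Of 14 regulators of p53, limma called 0 in the response of either genotype, and at an unadjusted p under 0.05 it passed 4 in wild type and 1 in mutant cells, all above 0, against 9.98% and 5.81% of all probes. Cdkn2a, whose locus encodes p16 and the Mdm2 inhibitor Arf, was called in each comparison of the genotypes. Its genotype ratio was 2.14 and 2.36 (2.25 ± 0.21 SE, adjusted p = 0.00203), and mutant cells were higher by 1.97 ± 0.38 SE within Cy3 (adjusted p = 0.00587) and by 1.76 ± 0.42 SE within Cy5 (adjusted p = 0.0132). Its response to H2O2 was 0.26 and 0.27 in wild type cells and 0.45 and -0.35 in mutant cells. Mdm4 (-0.66, adjusted p = 0.0433) and Chek2 (-0.61, adjusted p = 0.0418) were also called on the genotype arrays. Trp53 itself gave responses of -0.35 ± 0.21 SE in wild type and -0.08 ± 0.21 SE in mutant cells (adjusted p = 0.423 and 0.922, limma).

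Among 16 cell cycle genes that p53 is known to repress through p21 and the DREAM complex, 0 of 14 were called in wild type and 0 of 16 in mutant cells. At an unadjusted p under 0.05, 4 and 7 were above 0, against 9.98% and 5.81% of all probes, and 0 below, with median log2 ratios of 0.46 and 0.50. On the genotype arrays 5 of 16 were called, all below 0, where 9.78% of all probes were called: Cdc25c, Foxm1, Top2a, Birc5 and Ccnb1, with log2 ratios from -1.89 to -0.68.

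Sesn2 also belongs to the targets of ATF4, the transcription factor of the integrated stress response. In wild type cells 3 of 10 of its genes were called above 0, Trib3, Chac1 and Vldlr, at log2 3.07, 3.18 and 2.34 (adjusted p = 0.0404, 0.0229 and 0.0229, limma), where 0.119% of all probes were called, and the median was 1.38. In mutant cells 0 of 10 were called, 8 passed at an unadjusted p under 0.05, all below 0, against 6.21% of all probes, and the median was -0.86. Within Cy3, 4 of 10 were called higher in untreated mutant cells, against 0.936%. On the genotype arrays 7 of 11 were called above 0, against 9.83%, and the probe of Sesn2 gave -1.06 ± 0.76 SE.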

How the data were processed

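Cytoplasmic RNA (total RNA by the labels) was labelled with Cy3 or Cy5 and hybridized to Whole Mouse Genome arrays of 60-mer probes. The authors extracted the scans with Feature Extraction, version 7.5.1 in the file headers, and deposited spot and background intensity values that were not normalized. The deposited log10 ratio of that software and the deposited log2 ratios of the series table, which were close to values with the marked spots kept, served as alternatives. The local background median was subtracted from the mean signal, loess was applied to the ratios of each array, control and outlier spots had weight 0, and outlier spots were then left out. Probes were tested with limma 3.58.1 in R 4.3.3 over all 6 arrays with Benjamini-Hochberg adjustment over every non-control probe that had a value, and a call is an adjusted p under 0.05. The study's thresholds, an adjusted p under 0.005, a fold change of 2 (none for the genotype arrays) and an average log2 intensity above 6, were a second rule. That rule was used only with the fit over 6 arrays. One dye was compared after loess and Aquantile scaling. The statistics were tested on simulated data. A gene's leading probe is the one with the highest mean log2 intensity. All probes of the 10 genes were reported. Of each wider list at most 5 called genes were named. The members and lists were chosen with earlier results of these data known. The number of arrays, 2 for each comparison, limits the precision. The alternatives were the treatment of outlier spots, the background correction, the ratio, the fit, the variance trend, a filter on dim probes, the replicate number as a block, quantile scaling of a single dye and leaving out each array. One gene of the wider target list is not reported here.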

Additional observations from a re-analysis of the deposited data

Results flagged for a closer look

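With marked spots kept, 4 member probes had ratios of opposite sign in the genotypes on both arrays of each, as did 4889 of all 41146 probes (11.9%). Values are log2 ratios of treated over untreated cells, and the difference is mutant minus wild type, tested with limma over 6 arrays. Ccng1 A_51_P161612 gave -0.13 and -0.21 in wild type and 1.26 and 1.01 in mutant cells, a difference of 1.31 (adjusted p = 0.28). Mdm2 A_51_P201346 gave -0.08 and -0.14 in wild type and 0.95 and 1.11 in mutant cells, a difference of 1.14 (adjusted p = 0.462). Perp gave -0.15 and -0.53 in wild type and 0.43 and 0.25 in mutant cells, a difference of 0.68 (adjusted p = 0.693), where Cy5 was not well above background on either mutant array or on wild type replicate 1, so its direction is not resolved. Gdf15 gave 0.51 and 0.28 in wild type and -0.34 and -0.04 in mutant cells, a difference of -0.59 (adjusted p = 0.775), and it was not well above background in treated mutant cells.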

How the results depend on the processing

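Counts are member probes called by limma. Fitting each comparison on its own arrays gave 4 in wild type cells, 8 in mutant cells, 1 for the difference and 3 on the genotype arrays, and with marked spots kept as well, a setting chosen after seeing the data, 5, 9, 3 and 3. Marked spots kept, or the series table, gave 1 in wild type cells. The Feature Extraction ratio gave 3 on the genotype arrays. Leaving out 1 array gave 0 to 4 in wild type cells, 0 to 8 in mutant cells and 0 to 1 for the difference, each highest without genotype replicate 3 or 4. It gave 3 to 8 on the genotype arrays (3 without mutant replicate 1 or 2, 8 without genotype replicate 3 or 4), 0 within Cy3, and 0 to 2 within Cy5 (2 without wild type replicate 1). A scan-date block was not run, because the date coincides with the comparison.

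The replicate numbers of the treatment arrays are only shared numbers (r = -0.05 between the deviations of same-numbered arrays over 29913 probes). With the replicate number as a block, limma called 3 probes on the genotype arrays and 1 each within Cy3 and Cy5, and the log2 value turned for Ccng1 A_51_P161612 (-0.30) and Mdm2 A_51_P201346 (-0.11) within Cy5, Cdkn1a (0.14) and Gdf15 (0.10) within Cy3, and Sesn1 A_52_P53596 in mutant cells (0.066).

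Other values changed sign too, and the cause was not tested. With marked spots kept they were Bax on the genotype arrays (-0.54, and -0.53 in the series table), Sesn1 A_51_P233954 in wild type cells (0.14, also in the series table), Trp53inp1 A_52_P503387 in mutant cells (0.0311, and 0.0314 in the series table), Cdkn1a (-0.078) and Mdm2 A_51_P201346 (-0.059) within Cy5, and Sesn2 within Cy3 (0.20). With normexp they were Cdkn1a (-0.0099), Mdm2 A_51_P201346 (-0.0028) and Perp (-0.0723) within Cy5, Sesn1 A_51_P266644 on the genotype arrays (-0.0289) and Sesn1 A_52_P53596 within Cy3 (-0.0521). Leaving out 1 array of the comparison turned some values, which then ranged as follows. On the genotype arrays Sesn2 ranged from -2.71 to 0.60, Bbc3 from -1.72 to 0.48, Sesn1 A_51_P266644 from -0.41 to 0.47 and Trp53inp1 A_52_P503387 from -0.18 to 0.64. Sesn1 A_51_P266644 ranged from -0.78 to 0.0397 in mutant cells and from -0.39 to 0.42 for the difference. Within Cy3 Cdkn1a ranged from -0.34 to 0.14, Gdf15 from -1.28 to 0.10 and Sesn1 A_52_P53596 from -0.30 to 0.34. Within Cy5 Cdkn1a ranged from -0.26 to 0.31, Mdm2 A_51_P201346 from -0.11 to 0.47, Ccng1 A_51_P161612 from -0.30 to 0.47 and Sesn1 A_52_P53596 from -0.16 to 0.94.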
